A study of Mus musculus with 16 samples.

Results

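Collagen genes encode the chains of the triple-helical proteins of the extracellular matrix. All genes were taken whose single symbol in the array's annotation reads Col, a number, the letter a and a number, which gave 42 of the 18168 genes measured. They rested on 82 probe sets, and 15 of the 42 had 1 probe set. The 42 fell into 11 fibrillar genes, 6 basement membrane genes (Col4a1 to Col4a6) and 25 others. RNA was measured on Affymetrix arrays in 4 groups of 4 arrays each. The mutants overexpress a mutant form of Twinkle, the helicase that unwinds mitochondrial DNA, and model progressive external ophthalmoplegia, a disease of the eye muscles with deletions in mitochondrial DNA. Mutant mice were sampled in the cerebellum and in the hippocampus at 24, 24, 21 and 21 months (replicates 1 to 4), and wild-type mice in the same regions at 26, 24, 21 and 23 months. The promoter that drives the transgene is not given in the sources used here. The labels name the replicates as biological ones. They do not say whether a cerebellum and a hippocampus came from 1 animal, so the number of mice is not known.

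Each collagen chain pairs with others of its type in a triple helix, and prolines and lysines of the chain are hydroxylated in the endoplasmic reticulum before the helix is secreted. Fibrillar collagens (types I, II, III, V and XI among them) form the fibres of connective tissue, while type IV collagen forms the sheet-like network of basement membranes. In the brain, fibrillar collagen lies mainly in the meninges and around large vessels, type IV lies in the basement membranes of vessels and of the brain surface, and several transmembrane collagens are made by neurons.

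A value here is the difference of an array from the median array of its region. The deposited values leave no expression level, so levels of different collagens cannot be ranked and the labelled tissue could not be checked against its defining genes. The log base is not stated and was taken as 2; another base would scale each difference and leave the tests as they are. The hippocampus arrays carry a description that names cerebellum; they were taken as hippocampus from the title, the source and the tissue entry. Twnk, which encodes Twinkle, stood 0.06 higher in the mutants in each region, with overlapping groups (limma adjusted p = 0.91 in the cerebellum and 0.77 in the hippocampus). Whether its probe sets read the transgene is not given in the sources used here, so Twnk does not check the genotype labels.

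Some arrays stood apart in markers of neighbouring tissue. In the hippocampus, the mean over 20 meningeal fibroblast markers was 1.29 on mutant replicate 1, with 20 of 20 above 0. On the other 3 mutant arrays it ran from -0.09 to 0.03, and on the 4 wild-type arrays from -0.23 to 0.03. Mutant hippocampus replicate 4 was high for choroid plexus, the tissue that secretes cerebrospinal fluid, with a mean of 1.78 over 17 markers (17 of 17 above 0), and mutant cerebellum replicate 4 was low, at -1.21 (0 of 17). Markers of cerebellar granule neurons averaged 2.52 on wild-type hippocampus replicate 1 (6 of 6 above 0) and 0.98 on mutant hippocampus replicate 1 (5 of 6), against -0.08 to 0.28 on the other 6 hippocampus arrays. These arrays recur below, and their marker values are given beside collagens that were high or low on the same arrays. Whether the markers and the collagens move together was not tested.

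The first question was whether collagen RNA differed between mutant and wild-type mice. No collagen gene passed limma's test at an adjusted p under 0.05 in either region (0 of 42 in each). Neither did any other gene, so the background was 0% in both. At an unadjusted p under 0.05, 1 of the 42 was reached in the cerebellum (Col13a1, higher), against 5.39% of all genes (3.15% higher and 2.24% lower). In the hippocampus 3 were reached (Col23a1, Col10a1 and Col5a2, all higher), against 8.03% of all genes (5.28% higher and 2.75% lower). The median difference, mutant minus wild type, was 0.06 over the collagens in the hippocampus, where that over all genes was 0.02. In the cerebellum it was 0.01 over the collagens and 0.01 over all genes. The difference was above 0 for 32 of 42 collagens in the hippocampus, beside 58.9% of all genes, and for 23 of 42 in the cerebellum, beside 53.6%. Without mutant hippocampus replicate 1, the array high for meningeal markers, the hippocampal number was 27 of 42, beside 59% of all genes. Without wild-type hippocampus replicate 1 it was 35, beside 56.7%, and without both of these arrays (a setting added after the data were seen) 30, beside 57.3%. The other fits that left out 1 hippocampus array gave 28 to 34, beside 56.3% to 60.1%.

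**Figure D1:**
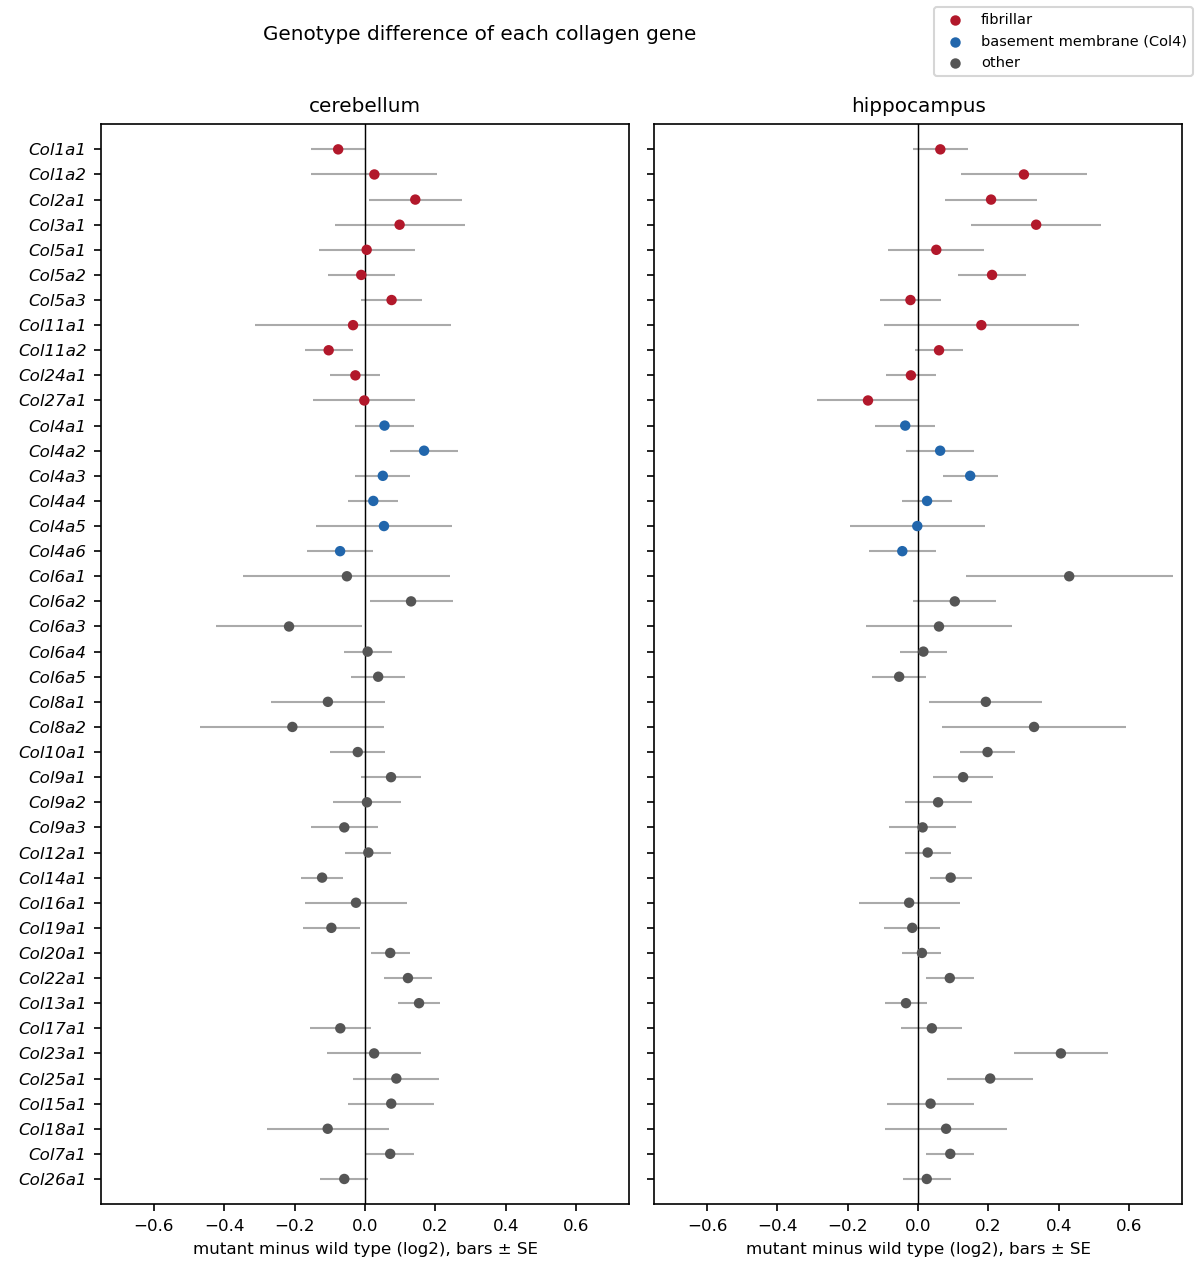
Mutant minus wild-type difference (log2 scale) of each of the 42 collagen genes in the cerebellum (left) and the hippocampus (right), grouped by colour into fibrillar, basement membrane and other; bars are standard errors from limma with 4 arrays per group. In the hippocampus 32 of 42 points lie right of 0, and those farthest right (Col6a1 at 0.43, Col23a1 at 0.41, Col3a1 at 0.34 and Col8a2 at 0.33) have standard errors from 0.13 to 0.29.

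The collagens were more spread over the hippocampus arrays than most genes. Their median range over the 8 hippocampus arrays was 0.462, against 0.305 over all genes, while in the cerebellum the medians were 0.319 and 0.308. A range above 1 was seen for 8 of 42 collagens in the hippocampus, where 3.14% of all genes had one. These were Col11a1, Col6a1, Col8a2, Col3a1, Col1a2, Col4a5, Col18a1 and Col23a1; Col11a1, Col8a2 and Col18a1 lie outside the naming rule and were chosen after their values were seen. In the cerebellum 1 of 42, Col6a3, had a range above 1, beside 0.705% of all genes. Mutant hippocampus replicate 1 held the highest value for 13 of the 42 collagens (31%), against 12.6% of all genes, and wild-type hippocampus replicate 1 held it for 11 (26.2% against 16.2%). Wide ranges thus lay on a few arrays of both genotypes.

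**Figure D2:**
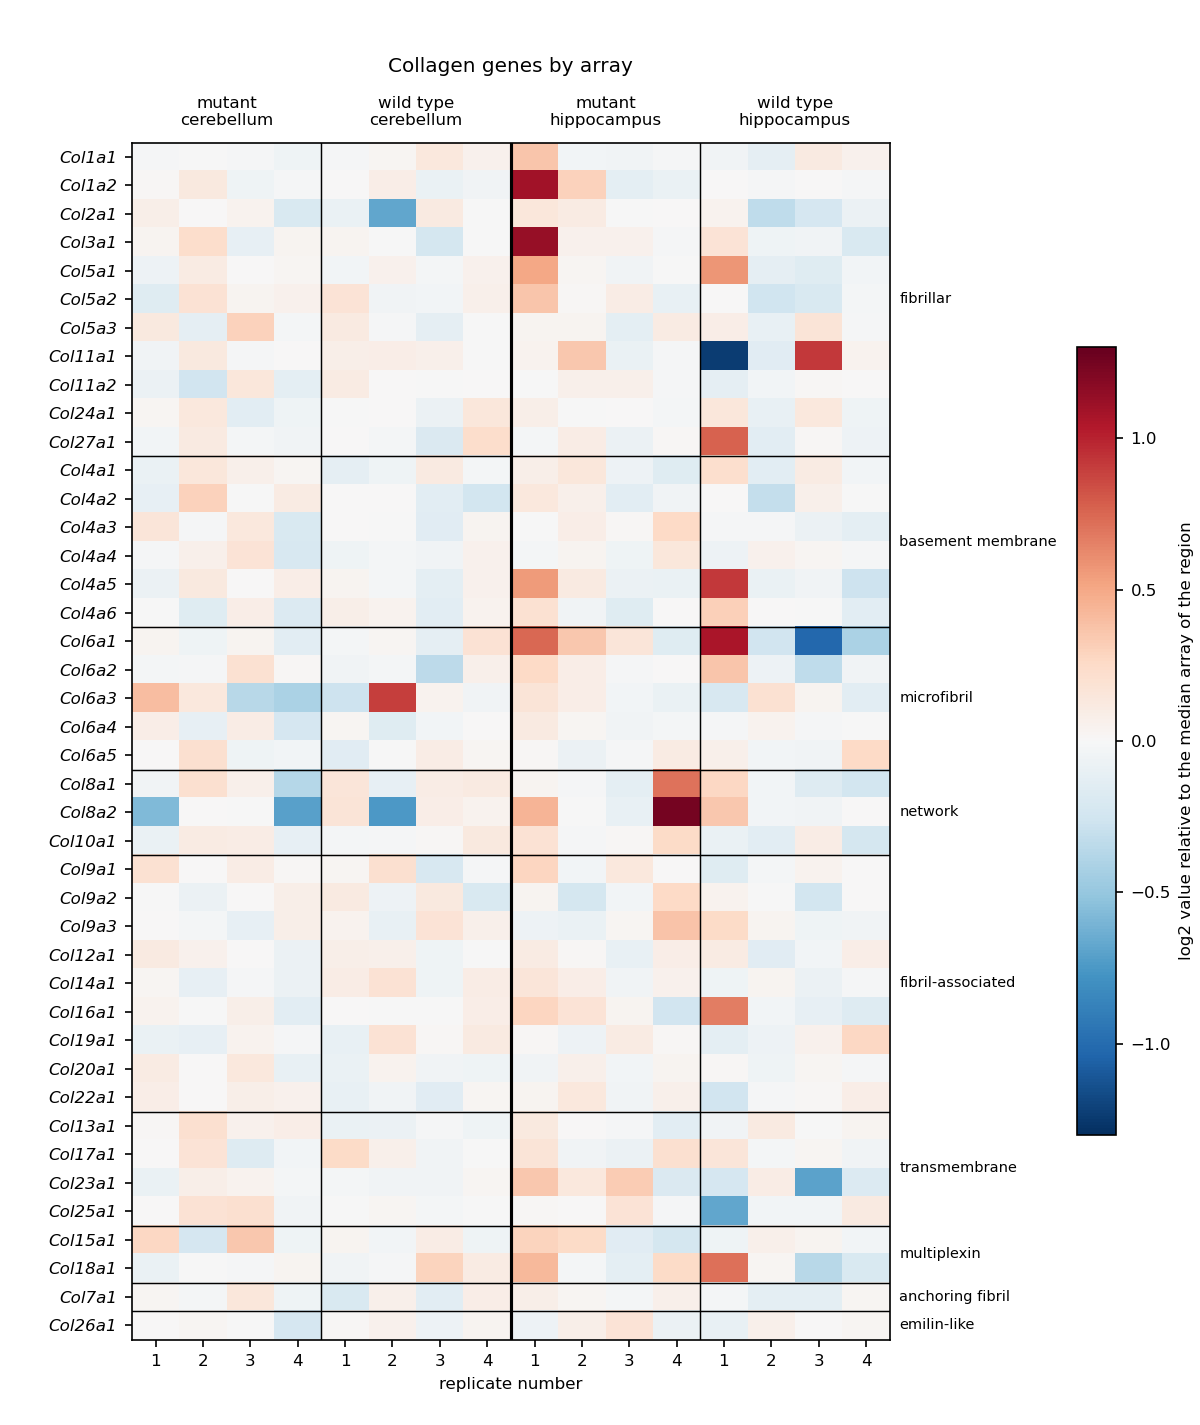
Value of each collagen gene (rows, grouped by class) on each of the 16 arrays (columns), on the log2 scale relative to the median array of the region, with the mutant arrays left of the wild-type arrays in each region. The deepest colours lie on mutant hippocampus replicate 1 (Col1a2 at 1.10 and Col3a1 at 1.13), mutant hippocampus replicate 4 (Col8a2 at 1.25), wild-type hippocampus replicate 1 (Col6a1 at 1.06, Col11a1 at -1.24) and wild-type hippocampus replicate 3 (Col11a1 at 0.92, Col6a1 at -1.02).

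The fibrillar genes come first. Col1a1 and Col1a2 encode both chains of type I collagen, and Col3a1 the single chain of type III, which is laid down with type I in soft tissues. In the hippocampus, Col1a2 had 1.10, 0.30, -0.13 and -0.08 in mutants and 0.01, -0.02, 0.01 and -0.01 in wild types. The 4 wild-type arrays lay close together and the mutants on both sides of them. The difference was 0.30 (SE 0.18, limma adjusted p = 0.67), and 0.03 without mutant replicate 1. Col3a1 showed 1.13, 0.06, 0.05 and -0.01 in mutant hippocampus, against 0.18, -0.06, -0.05 and -0.20 in wild type. Again 1 mutant array stood above all others and the groups overlapped. The difference was 0.34 (SE 0.18, limma adjusted p = 0.64), and 0.06 without mutant replicate 1. Col1a1 had 0.36, -0.03, -0.05 and -0.02 in mutant hippocampus and -0.04, -0.12, 0.11 and 0.06 in wild type. Its difference of 0.06 became -0.03 when that array was left out. All 3 type I and III genes were thus highest on mutant hippocampus replicate 1, on which the mean of the meningeal markers was 1.29, that of 11 mural cell markers 0.39 and that of 12 endothelial markers 0.19. The part of these markers in the collagen values was not tested. In bulk samples, fewer cells of a type and less RNA per cell cannot be told apart.

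Probe sets of 1 gene did not always move together. The 3 probe sets of Col1a2 differed between mutant and wild-type hippocampus by 0.36, 0.02 and 0.52, and the 2 of Col3a1 by 0.58 and 0.09. On mutant replicate 1, the Col3a1 probe sets read 2.22 and 0.04, and those of Col1a2 read 1.48, 0.03 and 1.78. In each of these genes 1 probe set therefore stayed near 0 on an array where the rest were high, and the gene means given above are lower than the values of the other probe sets. The 2 probe sets of Col1a1 differed between mutant and wild-type hippocampus by 0.18 and -0.05, and read 0.59 and 0.12 on mutant replicate 1.

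The promoters of Col1a2 and Col3a1 are shown because both genes peaked on the same array. Each window runs from 250 bases before to 50 after the start of the gene (RefSeq, mouse build GRCm38.p6), and capitals mark the letters CCAAT on either strand. The windows are chr6:4505368-4505667 (plus strand) for Col1a2 and chr1:45311288-45311587 (plus strand) for Col3a1.
Col1a2: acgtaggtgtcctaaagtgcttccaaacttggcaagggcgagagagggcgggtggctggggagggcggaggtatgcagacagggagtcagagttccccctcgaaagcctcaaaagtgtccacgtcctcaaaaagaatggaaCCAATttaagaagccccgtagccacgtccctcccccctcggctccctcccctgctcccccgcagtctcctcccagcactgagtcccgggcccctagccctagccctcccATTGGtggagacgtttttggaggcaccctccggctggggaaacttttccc
Col3a1: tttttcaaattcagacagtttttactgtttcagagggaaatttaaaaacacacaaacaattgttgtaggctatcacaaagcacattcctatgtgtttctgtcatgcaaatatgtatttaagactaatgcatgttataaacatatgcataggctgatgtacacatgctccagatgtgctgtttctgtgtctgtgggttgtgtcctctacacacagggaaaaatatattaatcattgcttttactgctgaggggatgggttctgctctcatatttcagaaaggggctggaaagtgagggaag
The Col1a2 window held CCAAT at 2 places, had a GC content of 61% and held no TATAAA. The Col3a1 window held no CCAAT and 1 TATAAA and had a GC content of 37.7%. CCAAT on either strand was found in 37.4% of all 32851 promoter windows and in 13 of the 33 collagen genes with a window. TATAAA was found in 13.6% of windows and in 5 of the 33, and GGGCGG in 35.7% and in 21 of the 33, each counted on both strands. A collagen gene was counted if any of its windows held the letters, while the shares are over single windows. The gene counts and the shares are therefore not strictly alike. A match describes these letters only, and none of the motifs contains another. Both genes were highest on the same array, and their windows differed in base composition.

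Col5a2, whose chain joins type I fibrils and limits their width, had 0.36, 0.01, 0.09 and -0.10 in mutant hippocampus and 0.01, -0.26, -0.20 and -0.03 in wild type. Its difference was 0.21 (SE 0.10, limma adjusted p = 0.6), with overlapping groups, and 0.12 without mutant replicate 1. Col5a2 and Col3a1, which are neighbours in the mouse genome, had the same sign on 8 of 8 hippocampus arrays and on 5 of 8 cerebellum arrays. Col2a1, the main collagen of cartilage, stood at 0.08, 0.00, 0.04 and -0.20 in mutant cerebellum and at -0.09, -0.68, 0.12 and -0.00 in wild type. The low value of wild-type replicate 2 set its difference of 0.14, which was -0.03 without that array. Col11a2, a chain of the thin fibrils of cartilage, differed by -0.10 (SE 0.07) in the cerebellum, with mutants from -0.25 to 0.15 and wild types from -0.00 to 0.11. Without mutant cerebellum replicate 2 that difference was -0.05, and without mutant cerebellum replicate 3 it was -0.18. Col1a1 differed by -0.08 in the cerebellum, Col1a2 by 0.03 and Col3a1 by 0.10 (0.04 without mutant cerebellum replicate 2), each with overlapping groups. Over all 11 fibrillar genes the median difference was 0.06 in the hippocampus, with 8 above 0, and -0.00 in the cerebellum, with 5 above 0, where the mean was 0.01 and so of opposite sign. Col11a1, the partner chain of Col11a2, had the widest range of any collagen in the hippocampus, at 2.15. It stood at 0.04, 0.35, -0.09 and -0.01 in mutants and at -1.24, -0.15, 0.92 and 0.05 in wild types. Both extremes were wild-type arrays, and its difference of 0.18 was -0.20 without wild-type replicate 1 and 0.52 without wild-type replicate 3.

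The 6 basement membrane genes encode the chains of type IV collagen. Col4a1 and Col4a2 form the network found in nearly all basement membranes, brain vessels included. Col4a1 had 0.08, 0.15, -0.07 and -0.16 in mutant hippocampus and 0.22, -0.14, 0.11 and -0.04 in wild type, a difference of -0.04 (SE 0.08). Col4a2 had 0.13, 0.06, -0.14 and -0.05 in mutants there and 0.00, -0.31, 0.07 and -0.00 in wild types, a difference of 0.06 (SE 0.10). These genes had the same sign on 8 of 8 hippocampus arrays and on 4 of 8 cerebellum arrays. In the cerebellum Col4a1 differed by 0.06 (SE 0.08). Col4a2 stood at -0.11, 0.30, -0.00 and 0.11 in mutant cerebellum and at 0.00, 0.01, -0.14 and -0.24 in wild type, with a difference of 0.17 (SE 0.10, limma adjusted p = 0.88). The groups overlapped in each case, and without mutant cerebellum replicate 2, on which 20 of 20 meningeal markers were above 0 (mean 0.38), the Col4a2 difference was 0.09.

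Col4a1 and Col4a2 start next to each other on opposite strands, and their windows are shown because they overlap. They are chr8:11312777-11313076 (minus strand) for Col4a1 and chr8:11312555-11312854 (plus strand) for Col4a2 (RefSeq, GRCm38.p6), with CCAAT on either strand in capitals.
Col4a1: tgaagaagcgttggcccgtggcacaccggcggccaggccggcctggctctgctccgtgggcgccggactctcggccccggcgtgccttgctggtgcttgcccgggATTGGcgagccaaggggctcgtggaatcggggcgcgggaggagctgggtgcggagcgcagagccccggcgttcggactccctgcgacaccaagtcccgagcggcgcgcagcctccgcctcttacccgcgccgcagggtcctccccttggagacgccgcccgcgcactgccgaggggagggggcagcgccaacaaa
Col4a2: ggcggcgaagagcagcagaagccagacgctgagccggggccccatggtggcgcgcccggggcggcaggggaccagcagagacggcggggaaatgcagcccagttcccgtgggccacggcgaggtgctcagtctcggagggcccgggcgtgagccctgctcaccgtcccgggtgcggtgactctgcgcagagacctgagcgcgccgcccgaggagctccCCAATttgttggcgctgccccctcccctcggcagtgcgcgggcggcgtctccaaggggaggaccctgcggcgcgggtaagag
The starts are 21 bases apart and the windows share 78 bases. Each window held CCAAT at 1 place, and the GC contents were 74% for Col4a1 and 73.7% for Col4a2.

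The other type IV chains form networks of more restricted basement membranes, such as that of the kidney glomerulus. Col4a3 had -0.01, 0.09, 0.02 and 0.26 in mutant hippocampus and -0.01, -0.01, -0.07 and -0.13 in wild type. It was the only collagen whose hippocampal groups did not overlap (1 of 42 higher, beside 3.24% of all genes, and 0 of 42 lower, beside 1.52%). The gap between the lowest mutant and the highest wild type was within rounding of these values, the difference was 0.15 (SE 0.08, limma adjusted p = 0.63), and its 2 probe sets differed by -0.03 and 0.33. Without mutant replicate 4, the array high for choroid plexus markers, the difference was 0.09. Col4a4, which pairs with Col4a3, differed by 0.03 in the hippocampus and 0.02 in the cerebellum, and Col4a3 by 0.05 in the cerebellum. Col4a5 had 0.55, 0.12, -0.08 and -0.09 in mutant hippocampus and 0.92, -0.09, -0.05 and -0.27 in wild type. Replicate 1 was the highest of its group in both genotypes, the arrays high for granule neuron markers, and the difference was -0.00 (SE 0.19), or 0.26 without wild-type replicate 1. The 2 probe sets of Col4a5 differed in opposite directions there, by 0.15 and -0.16. Col4a6 differed by -0.05 in the hippocampus and by -0.07 in the cerebellum, and Col4a5 by 0.05 in the cerebellum. Over the 6 genes the median difference was 0.01 in the hippocampus, with 3 above 0, and 0.05 in the cerebellum, with 5 above 0.

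Among the other collagens, the transmembrane types held the smallest p in each region. Col23a1, a membrane-spanning collagen whose ectodomain can be shed, had 0.35, 0.13, 0.33 and -0.19 in mutant hippocampus and -0.22, 0.10, -0.70 and -0.18 in wild type. A total of 3 mutant arrays lay above all 4 wild-type arrays, and the remaining mutant array lay among them. The difference was 0.41 (SE 0.13, limma adjusted p = 0.49). Its 3 probe sets differed by 0.34, 0.28 and 0.61, all in the same direction, and without wild-type replicate 3 the difference was 0.26. In the cerebellum Col23a1 differed by 0.03 (SE 0.13). Col25a1, a neuronal collagen first found in amyloid plaques, stood at 0.01, 0.00, 0.18 and -0.01 in mutant hippocampus and at -0.68, -0.04, -0.04 and 0.12 in wild type, with a difference of 0.20 (SE 0.12, limma adjusted p = 0.67). Wild-type replicate 1, highest for granule neuron markers, was its lowest array, and without it the difference was 0.03.

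Col13a1, a transmembrane collagen of cell junctions and of the neuromuscular synapse, had 0.01, 0.21, 0.06 and 0.09 in mutant cerebellum and -0.09, -0.08, -0.01 and -0.06 in wild type. It was the only collagen whose cerebellar groups did not overlap (1 of 42 higher, beside 1.44% of all genes, and 0 of 42 lower, beside 1.02%). The difference was 0.15 (SE 0.06, limma adjusted p = 0.88), and in the hippocampus it was -0.03 with overlapping groups. Col14a1, which coats fibrils and links them to other matrix proteins, had 0.03, -0.10, -0.02 and -0.07 in mutant cerebellum and 0.10, 0.19, -0.06 and 0.10 in wild type, a difference of -0.12 (SE 0.06, limma adjusted p = 0.88). In the hippocampus it differed by 0.09. Col22a1, a collagen of tissue junctions, differed by 0.12 in the cerebellum (SE 0.07), with mutants from 0.01 to 0.09 and wild types from -0.15 to 0.03.

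The difference between the regions was tested directly, as the hippocampal minus the cerebellar genotype difference. At an adjusted p under 0.05 none of the 42 was called, with 0% of all genes, and 2 had an unadjusted p under 0.05, 1 in each direction, beside 5.35% of all genes (3.07% above 0 and 2.28% below). These were Col14a1 at 0.21 (SE 0.09, limma adjusted p = 0.87) and Col13a1 at -0.19 (SE 0.09, limma adjusted p = 0.87). Col23a1 was next at 0.38 (limma adjusted p = 0.87), and 0.23 without wild-type hippocampus replicate 3. Among these 3 genes, Col14a1 had genotype differences of opposite sign in the regions, as did Col13a1, while both differences of Col23a1 were above 0. The value was above 0 for 31 of 42 collagens, beside 54.9% of all genes. Without mutant hippocampus replicate 1 it was above 0 for 23 of 42, beside 55% of all genes, and without mutant cerebellum replicate 4 for 24 of 42, beside 53.7%. These were the lowest counts, and the other fits that left out 1 array gave 26 to 34 of 42, beside 52.4% to 56.2%.

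Types VIII and X form hexagonal networks. Col10a1, known from cartilage that turns to bone, had 0.18, -0.01, 0.01 and 0.25 in mutant hippocampus and -0.08, -0.14, 0.09 and -0.23 in wild type, a difference of 0.20 (SE 0.08, limma adjusted p = 0.56). In the cerebellum it differed by -0.02. Col8a1 and Col8a2, the chains of type VIII, known from the cornea's Descemet membrane and from vessels, were chosen after their values were seen. Col8a2 had 0.44, -0.00, -0.10 and 1.25 in mutant hippocampus and 0.35, -0.04, -0.05 and 0.00 in wild type. Col8a1 had 0.04, -0.01, -0.13 and 0.70 in mutants there, against 0.27, -0.03, -0.17 and -0.24 in wild types. Both peaked on mutant replicate 4, the array with a choroid plexus mean of 1.78, and without it the differences were 0.05 for Col8a2 and 0.01 for Col8a1, in place of 0.33 and 0.19. In the cerebellum Col8a2 stood at -0.57, 0.00, -0.00 and -0.70 in mutants and at 0.17, -0.75, 0.09 and 0.05 in wild types. Col8a1 stood at -0.05, 0.21, 0.06 and -0.38 in mutant cerebellum and at 0.16, -0.11, 0.10 and 0.12 in wild type. Mutant cerebellum replicate 4, with a choroid plexus mean of -1.21, was the lowest for Col8a1 and next to lowest for Col8a2. Wild-type cerebellum replicate 2, lowest for Col8a2, had a choroid plexus mean of -0.38. Values on other arrays were mixed. Mutant cerebellum replicate 1 had Col8a2 at -0.57 and a choroid plexus mean of -0.07, and mutant hippocampus replicate 1 had Col8a2 at 0.44 and a mean of -0.19. Wild-type hippocampus replicate 1 had Col8a2 at 0.35 and a mean of 0.69. Col8a1 and Col8a2 had the same sign on 7 of 8 arrays in each region. The part of choroid plexus markers in these values was not tested.

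**Figure D3:**
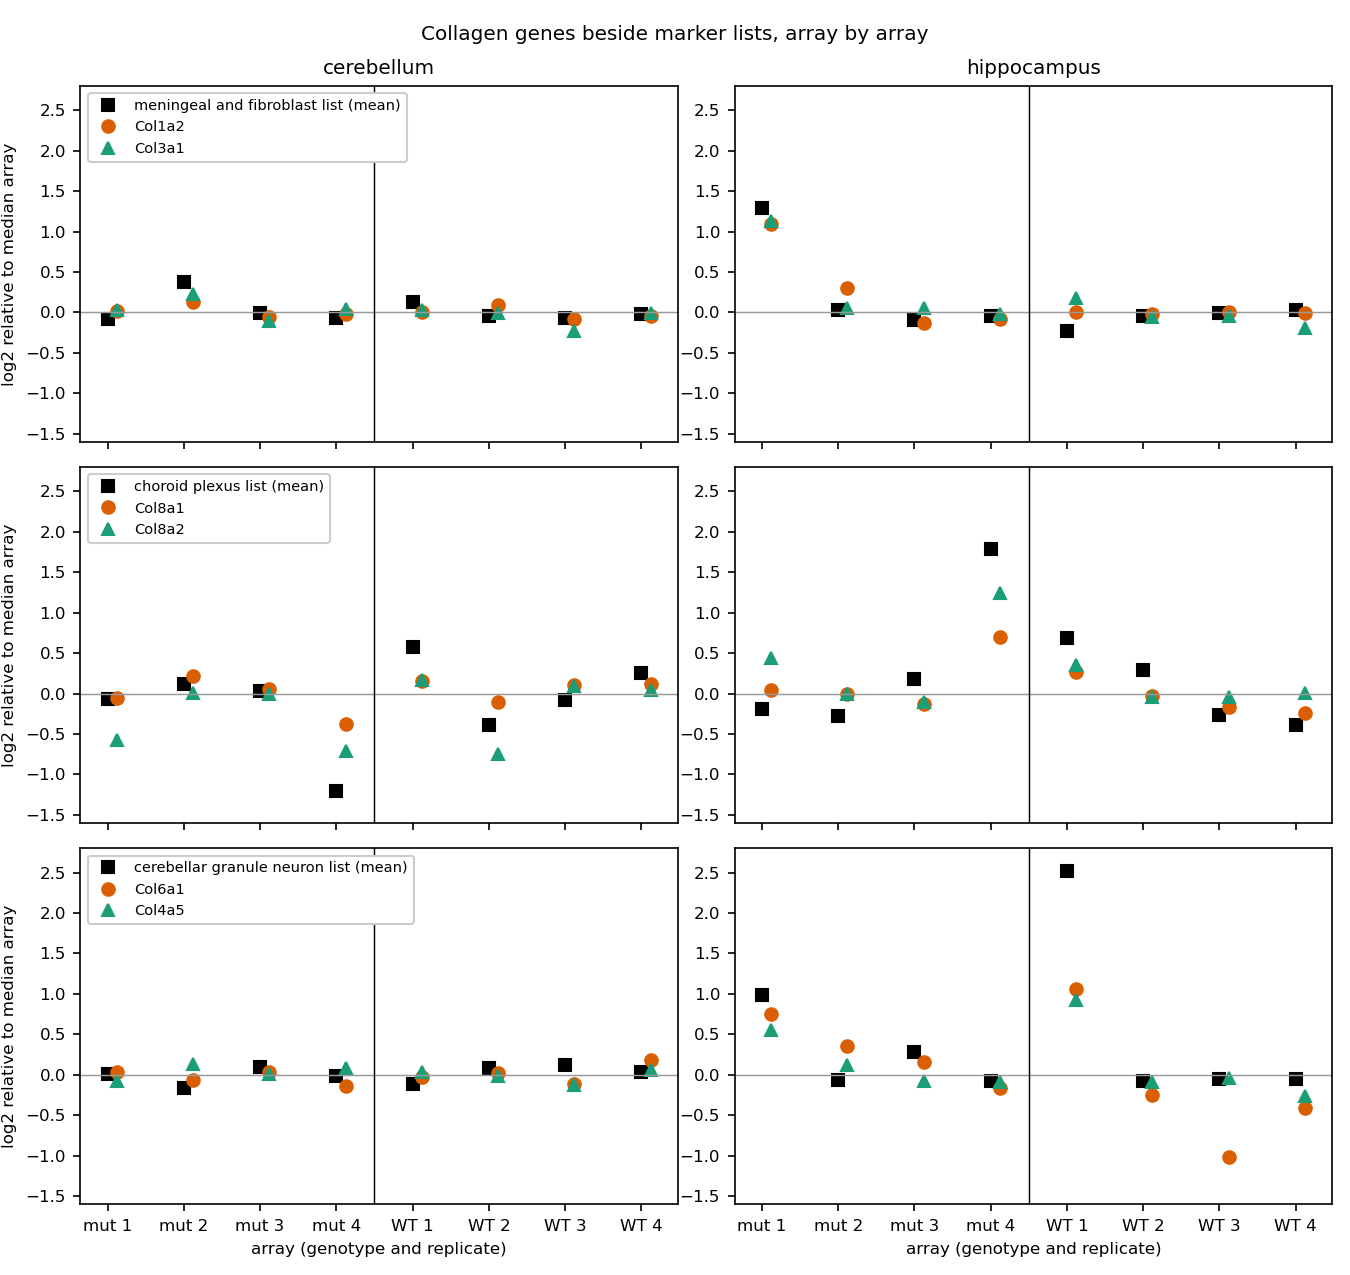
Collagen values and the mean of the marker list set beside them on each of the 16 arrays, mutant arrays left of wild-type arrays in each region, all on the log2 scale relative to the median array of the region. Col1a2 and Col3a1 stand at 1.10 and 1.13 on mutant hippocampus replicate 1, where the meningeal mean is 1.29, and Col8a1 and Col8a2 at 0.70 and 1.25 on mutant hippocampus replicate 4, where the choroid plexus mean is 1.78. Col6a1 and Col4a5 stand at 1.06 and 0.92 on wild-type hippocampus replicate 1, where the granule neuron mean is 2.52.

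Type VI collagen forms beaded microfibrils around cells. Col6a1, one of its chains, had 0.74, 0.35, 0.16 and -0.16 in mutant hippocampus and 1.06, -0.25, -1.02 and -0.41 in wild type. Of the 4 wild-type arrays, 1 lay above all mutants and the other 3 below all mutants, and the difference was 0.43 (SE 0.29, limma adjusted p = 0.72). Without wild-type replicate 1, whose granule neuron mean was 2.52, it was 0.83 (limma adjusted p = 0.27), and without wild-type replicate 3 it was 0.14. Col6a2 had the same sign as Col6a1 on 6 of 8 hippocampus arrays. In the cerebellum Col6a1 differed by -0.05. After Col6a1, the highest collagens on wild-type hippocampus replicate 1 were Col4a5 at 0.92, Col27a1 at 0.765, Col18a1 at 0.72, Col16a1 at 0.66 and Col5a1 at 0.57. Col18a1 is a heparan sulphate collagen of vessel basement membranes, and Col16a1 a fibril-associated collagen. Col27a1 and Col5a1 are fibrillar genes that lie outside the naming rule and were chosen after their values were seen. The lowest collagens on that array were Col11a1 at -1.24 and Col25a1 at -0.68. The part of granule neuron markers in the Col6a1, Col4a5, Col27a1, Col18a1, Col16a1 and Col5a1 values was not tested. The 25 collagens outside the fibrillar and type IV classes had a median difference of 0.06 in the hippocampus, with 21 above 0, and of 0.01 in the cerebellum, with 13 above 0, where the mean was -0.01 and so of opposite sign. Leaving out 1 array gave medians from 0.04 to 0.10 in the hippocampus and from -0.02 to 0.02 in the cerebellum.

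Age was the next comparison. In every group replicates 1 and 2 were 24 months or older and replicates 3 and 4 were 23 months or younger, so age cannot be told apart from anything else those numbers share. In the hippocampus, older against younger, no collagen was called at an adjusted p under 0.05 and neither was any other gene (0%). At an unadjusted p under 0.05, 11 of 42 collagens were reached, 10 higher and 1 lower in older mice, against 6.55% of all genes (3.39% higher and 3.16% lower). Without both hippocampus arrays of replicate 1, 3 of 42 were reached, all higher in older mice (Col6a1, Col1a2 and Col16a1), beside 3.08% of all genes. That setting was added after the data were seen. Leaving out mutant hippocampus replicate 1 gave 6 of 42, beside 5.39% of all genes. Leaving out wild-type hippocampus replicate 1 also gave 6, beside 3.89%, and wild-type hippocampus replicate 3 gave 7, beside 5.03%. The fits without mutant hippocampus replicates 2, 3 or 4 gave 11, 8 and 9, beside 8.81%, 7.5% and 6.58%. Those without wild-type hippocampus replicates 2 or 4 gave 12 and 8, beside 10.4% and 5.21%. Of the 42, 26 differences were above 0, beside 45.3% of all genes.

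Col6a1 averaged 0.48 ± 0.56 in older and -0.36 ± 0.50 in younger hippocampus (SD, n = 4 each), with a difference of 0.84 (SE 0.22, limma adjusted p = 0.44). Without both replicate 1 arrays it was 0.41. Col16a1 averaged 0.27 ± 0.29 in older and -0.12 ± 0.12 in younger hippocampus (SD, n = 4 each), a difference of 0.39 (SE 0.11, limma adjusted p = 0.51) that was 0.19 without those arrays. Col4a5 averaged 0.38 ± 0.45 in older and -0.12 ± 0.10 in younger hippocampus (SD, n = 4 each), a difference of 0.49 (SE 0.16, limma adjusted p = 0.6) that was 0.13 without them. The age classes overlapped for each of these genes. No collagen had age classes wholly apart in the hippocampus (0 of 42, beside 1.78% of all genes higher and 1.72% lower). The remaining collagens at an unadjusted p under 0.05 were Col18a1, Col1a2, Col3a1, Col5a1, Col6a2, Col23a1 and Col4a6, with differences from 0.19 to 0.40, and Col19a1 at -0.17. Col5a1, Col6a2, Col18a1 and Col19a1 lie outside the naming rule and were chosen after their values were seen. The arrays of replicate 1, the ones high for granule neuron markers and in the mutant also for meningeal markers, are both in the older class, and the part of those markers was not tested.

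**Figure D4:**
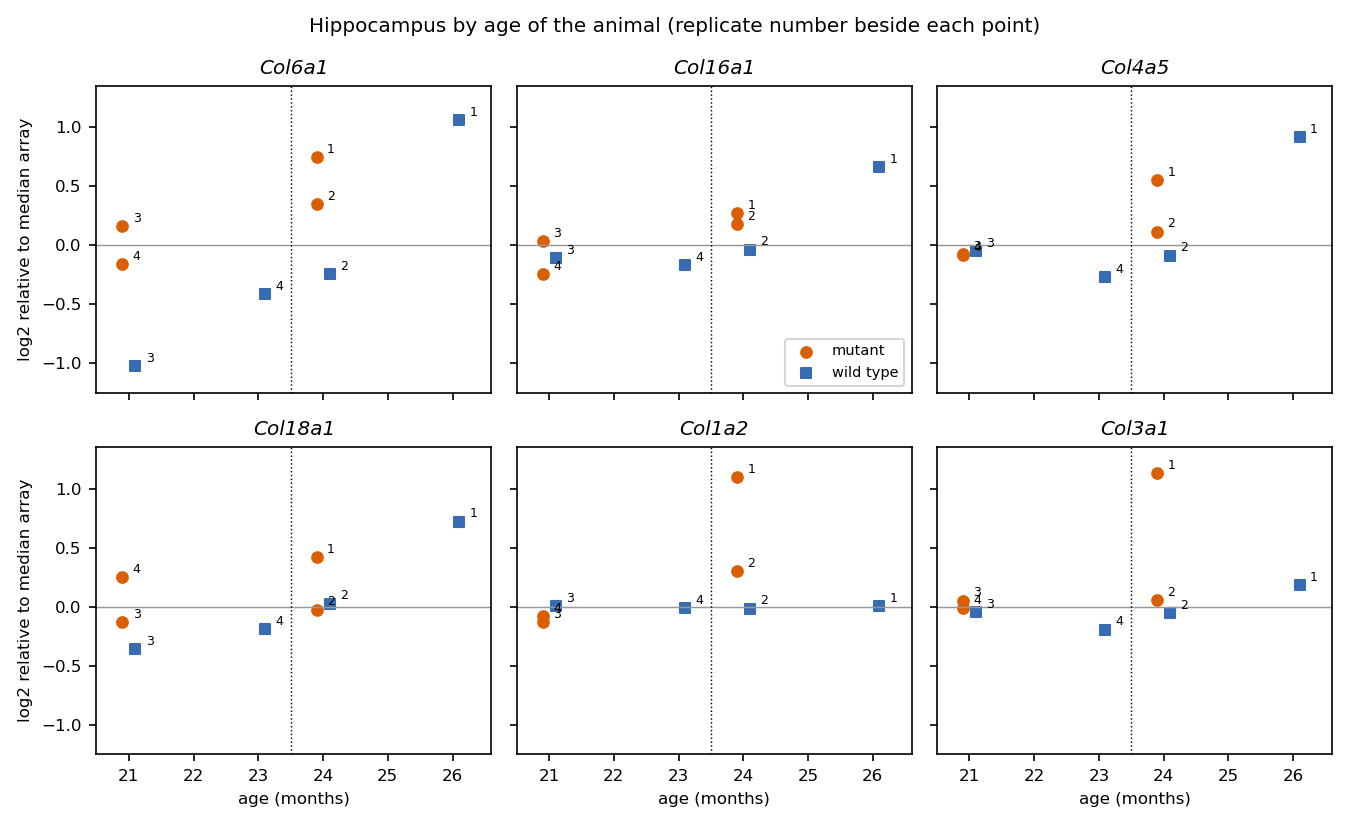
Hippocampal value (log2 scale relative to the median array) of 6 collagen genes against the age of the mouse in months, with mutants as circles, wild types as squares, replicate numbers beside the points and a dotted line between the younger and the older class. Points of equal age are set slightly apart; the highest point in each panel is a replicate 1 array, as for Col6a1 at 1.06 in the wild type aged 26 months.

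In the cerebellum, older against younger, 0 of 42 collagens were called and 0% of all genes. An unadjusted p under 0.05 was reached by 2 of 42, both higher in older mice, beside 4.21% of all genes (2.39% higher and 1.82% lower), and 23 of 42 differences were above 0, beside 52.6%. Col6a3, the large chain of type VI collagen, averaged 0.29 ± 0.49 in older and -0.19 ± 0.22 in younger cerebellum (SD, n = 4 each), a difference of 0.48 (SE 0.18, limma adjusted p = 1). Wild-type replicate 2 stood at 0.90, and without it the difference was 0.28. Col17a1, a hemidesmosome collagen that anchors epithelial cells, averaged 0.12 ± 0.11 in older and -0.06 ± 0.07 in younger cerebellum (SD, n = 4 each), with a difference of 0.19 (SE 0.08, limma adjusted p = 1). Col12a1, which associates with type I fibrils, differed by 0.11 (SE 0.06). The age classes did not overlap for 3 collagens, Col17a1, Col12a1 and Col1a2, all higher in older mice, beside 1.49% of all genes in that direction, and for 0 in the other, beside 0.765%.

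Genes that make, bind or neighbour collagen showed no call either. Of 33 listed biosynthesis genes, 29 were measured, and in the hippocampus 3 were higher and 2 lower in mutants at an unadjusted p under 0.05, beside 5.28% and 2.75% of all genes. Leaving out 1 hippocampus array at a time gave 0 to 5 higher and 1 to 2 lower, beside 5.87% to 9.52% of all genes in both directions together. The largest number, 5 higher and 1 lower, came without wild-type hippocampus replicate 1, beside 7.32% of all genes. Among them, Ppib, a prolyl isomerase of collagen folding, differed by 0.12 and did not overlap between the groups (1 of 29, beside 3.24% of all genes), Crtap, its partner in prolyl 3-hydroxylation, differed by 0.17, and Colgalt2, a collagen galactosyltransferase, by -0.14 (limma adjusted p = 0.6 for each). The median over the 29 was 0.06 in the hippocampus (0.02 without mutant replicate 1) and 0.01 in the cerebellum. In the cerebellum none of the 29 had an unadjusted p under 0.05, beside 5.39% of all genes. The smallest p there belonged to Bmp1, the protease that trims procollagen, at -0.18 (SE 0.10), or -0.09 without wild-type replicate 3. Of 11 listed collagen receptors, 10 were measured. None had an unadjusted p under 0.05 in either region, beside 5.39% of all genes in the cerebellum and 8.03% in the hippocampus. Mrc2, an endocytic collagen receptor, differed by 0.07 in the hippocampus (-0.03 without mutant replicate 1) and 0.12 in the cerebellum. Lair1, an inhibitory receptor of immune cells, differed by -0.11 in the hippocampus (-0.07 without wild-type replicate 1). Of 16 listed laminins and other basement membrane partners of type IV collagen, 15 were measured. At an unadjusted p under 0.05, 1 of the 15 was reached in the hippocampus, beside 8.03% of all genes, and 0 in the cerebellum, beside 5.39%. This was Lama2, a laminin chain, at 0.27 (SE 0.11, limma adjusted p = 0.59) and 0.17 without mutant replicate 1. Agrn, a heparan sulphate proteoglycan, had the smallest p in the cerebellum at -0.15 (SE 0.07), or -0.10 without wild-type replicate 4.

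The marker lists, which hold no collagen, were set beside the collagens. In the hippocampus, 20 of 20 meningeal fibroblast markers were above 0, beside 58.9% of all genes, with a median of 0.35, and 6 were higher at an unadjusted p under 0.05, beside 5.28% of all genes. Without mutant hippocampus replicate 1, 8 of 20 were above 0, beside 59% of all genes, with a median of -0.06. At an unadjusted p under 0.05, 3 were then higher and 2 lower, beside 7.25% of all genes in both directions together. Dcn, a proteoglycan that binds collagen fibrils, differed by 0.63 in the hippocampus (SE 0.11, limma adjusted p = 0.083). Leaving out 1 hippocampus array at a time gave it differences from 0.54 to 0.73, and it was called without mutant replicate 4 (limma adjusted p = 0.036) and without wild-type replicate 2 (limma adjusted p = 0.04). Of 8 ependymal markers, 8 were above 0 in the hippocampus, beside the same 58.9%, with a median of 0.54, and 6 were higher at an unadjusted p under 0.05, beside 5.28%. Leaving out 1 hippocampus array at a time gave ependymal medians from 0.46 to 0.67, with 8 of 8 above 0 each time. Tmem212 differed by 1.06 (SE 0.26, limma adjusted p = 0.37). In the hippocampus the medians were 0.10 over 12 endothelial markers, 0.08 over 11 mural markers, 0.25 over 17 choroid plexus markers and -0.31 over 6 granule neuron markers. Several of these depended on 1 array, in fits added after the data were seen. The choroid plexus median was -0.16 without mutant hippocampus replicate 4, and from 0.09 to 0.43 without any 1 of the other hippocampus arrays. The granule neuron median was 0.17 without wild-type hippocampus replicate 1. The mural median was -0.02 without mutant hippocampus replicate 1, and the endothelial one 0.05. Of the 12 endothelial markers, 2 were higher and 0 lower in mutant hippocampus at an unadjusted p under 0.05, beside 5.28% and 2.75% of all genes. Groups did not overlap for 3 of the 12, all higher, beside 3.24%. Without mutant hippocampus replicate 1, 0 of the 12 had an unadjusted p under 0.05, beside 7.25%. Of the 11 mural markers, 0 were higher and 1 lower at that threshold. In the cerebellum the medians were 0.06 for meningeal, 0.01 for endothelial, 0.01 for mural, -0.39 for choroid plexus, -0.05 for ependymal and -0.06 for granule neuron markers. Without mutant cerebellum replicate 4, the choroid plexus median in the cerebellum was -0.05, and without wild-type cerebellum replicate 1 it was -0.20. Leaving out 1 cerebellum array at a time gave medians from -0.01 to 0.11 for meningeal, from -0.16 to 0.06 for ependymal and from -0.11 to 0.01 for granule neuron markers.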

How the data were processed

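Affymetrix arrays of cerebellum and hippocampus from mutant and wild-type mice, 16 in all, were analysed. Biotin-labelled cRNA was made from 5 ug of total RNA, per the labels' protocols, and GCOS 4.0 is named per the submitters' processing notes. The deposited values are on a log scale, taken as log2; how probes were summarised, normalized and centred is not given in the sources used here. In each region every probe set had a median over the 8 arrays within 1e-05 of 0. No filter on dim probe sets could therefore be set. Of 45101 probe sets, 64 controls and 133 with an empty value were left out, and none of them was a collagen's. The mean over the probe sets with 1 gene symbol gave each gene's value. All 42 collagen symbols were found in RefSeq, and 33 had a promoter window.

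Over the 16 arrays, a model with a mean per group was fitted in R 4.3.3 with limma 3.58.1 (12 residual degrees of freedom) and was tested on simulated data first. Two-sided p-values were adjusted by Benjamini-Hochberg over 18168 genes. Age class (24 months or more against less) was fitted with genotype within region. Each p-value sets a difference against the spread between arrays within groups, pooled over all 16 arrays and drawn towards a value shared by all genes. It takes no account of groups that differ in spread. The number of arrays limits the precision. A genotype difference had a standard error of 0.0741 at the median over genes. Same-numbered arrays of mutant and wild type within a region correlated between -0.192 and 0.231 in their deviations from the group means. Those of cerebellum and hippocampus within a genotype correlated between -0.175 and 0.167, and their ages are the same. These correlations cannot tell whether both regions came from the same animal. The labels do not pair the samples, so all arrays were treated as independent, also in the difference between regions.

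Values were printed for Col1a1, Col1a2, Col3a1, the 6 Col4 genes, the 3 members of smallest p per class and region, per age contrast and for the difference between regions, and up to 3 genes of each other list. The members, lists and this rule were chosen with earlier results of these data known. Alternatives left out arrays or changed the normalization, the covariates or the summary over probe sets.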

Additional observations from a re-analysis of the deposited data

Results flagged for a closer look

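Among 27 collagen genes and 108 groups of 4 arrays, 10 groups held 1 array far from the other 3, with a gap to the nearest that took nearly the whole range of the group. Chance flags about 1 in 20 groups that are picked without regard to their values. Many of these genes were picked by their p or their values in the same data, and the groups share arrays. The 10 flags therefore cannot be compared with that share. On mutant hippocampus replicate 1, the array high for meningeal markers, these were Col3a1 at 1.13 and Col1a1 at 0.36. On mutant hippocampus replicate 3 it was Col25a1 at 0.18. On wild-type hippocampus replicate 1, the array highest for granule neuron markers, they were Col16a1 at 0.66 and Col8a2 at 0.35. In wild-type cerebellum they were Col11a2 at 0.11 on replicate 1, Col8a2 at -0.75 on replicate 2, Col3a1 at -0.23 and Col4a6 at -0.14 on replicate 3, and Col16a1 at 0.088 on replicate 4. No group of mutant cerebellum held one.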

How the results depend on the processing

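No collagen gene was called under any alternative run (0 in each comparison). The number of all genes called ranged, over fits that left out 1 array each, from 0 to 7 for genotype in the hippocampus, 0 to 1 for the difference between regions, 0 to 9 for age in the cerebellum and 0 to 7 for age in the hippocampus. With 4 arrays high or low in markers of other tissue left out (mutant hippocampus replicates 1 and 4, wild-type hippocampus replicate 1 and mutant cerebellum replicate 4) it was 1 for genotype in the hippocampus and 1 for the difference between regions, with quantile normalization 2 for genotype in the hippocampus, 7 for age in the cerebellum and 10 for age in the hippocampus, and without both hippocampus arrays of replicate 1 (added after seeing the data) 2 for age in the hippocampus. The count of collagens at an unadjusted p under 0.05 for genotype in the hippocampus was 3, beside 8.03% of all genes. Without wild-type hippocampus replicate 1 it was 8, beside 7.32%, and without wild-type hippocampus replicate 2 it was 1, beside 8.15%. In the cerebellum it was 1, beside 5.39% of all genes. It was 0 there without mutant cerebellum replicate 2 (2.98% of all genes) and 3 without mutant cerebellum replicate 1 (5.56%). It was 2 without mutant cerebellum replicate 3 (8.32%), mutant cerebellum replicate 4 (4.35%) or wild-type cerebellum replicate 3 (4.65%). Without mutant hippocampus replicate 3 (5.03%) or wild-type hippocampus replicate 1 (6.18%) the cerebellar count was also 2. For the difference between regions the count was 2, beside 5.35% of all genes. It was 4 without mutant cerebellum replicate 3 (7.43%) or wild-type hippocampus replicate 1 (5.82%). It was 1 without mutant cerebellum replicate 4 (3.69%), wild-type cerebellum replicates 1 (5.93%) or 4 (4.7%) or wild-type hippocampus replicate 4 (6.52%). For age in the cerebellum the count was 2, beside 4.21% of all genes. It was 1 without mutant cerebellum replicate 3 (5.87%) or wild-type cerebellum replicates 1 (3.14%), 2 (4.95%) or 3 (2.71%). With the replicate block the hippocampal genotype count was 5, beside 7.4% of all genes, and that of the difference between regions 1, beside 5.25%. The block changed no call, and same-numbered samples were not paired by the labels. The median difference over the collagens ranged, leaving out 1 array, from 0.04 to 0.10 in the hippocampus and from -0.02 to 0.03 in the cerebellum, over fibrillar genes from 0.03 to 0.11 and from -0.04 to 0.03, over type IV genes from -0.04 to 0.06 and from 0.01 to 0.08, and over the other 25 from 0.04 to 0.10 and from -0.02 to 0.02.

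Many differences changed sign. In the cerebellum, leaving out 1 array gave ranges of -0.055 to 0.016 for Col10a1, -0.020 to 0.043 for Col12a1, -0.052 to 0.019 for Col16a1, -0.011 to 0.059 for Col1a2, -0.030 to 0.24 for Col2a1, -0.034 to 0.095 for Col4a4, -0.062 to 0.051 for Col5a2, -0.095 to 0.0036 for Col6a1, -0.37 to 0.032 for Col6a3 and -0.19 to 0.0068 for Col8a1. In the hippocampus they were -0.20 to 0.52 for Col11a1, -0.023 to 0.067 for Col12a1, -0.078 to 0.0097 for Col13a1, -0.11 to 0.17 for Col16a1, -0.01 to 0.087 for Col17a1, -0.057 to 0.30 for Col18a1, -0.034 to 0.10 for Col1a1, -0.096 to 0.023 for Col4a1, -0.021 to 0.11 for Col4a2, -0.016 to 0.053 for Col4a4, -0.14 to 0.26 for Col4a5, -0.11 to 0.045 for Col4a6 and -0.0021 to 0.13 for Col6a3. With the 4 arrays left out, the cerebellar differences turned to 0.016 for Col10a1, 0.019 for Col16a1 and 0.0068 for Col8a1, and the hippocampal ones to -0.058 for Col1a1, 0.063 for Col4a1, -0.032 for Col4a4, 0.15 for Col4a5, -0.009 for Col6a3, -0.044 for Col17a1, -0.0013 for Col12a1, 0.21 for Col16a1, -0.024 for Col8a2 and -0.14 for Col11a1. Quantile normalization turned hippocampal differences to 0.12 for Col4a5, 0.065 for Col16a1 and -0.013 for Col11a1. The median over probe sets turned cerebellar ones to -0.033 for Col4a4 and -0.015 for Col12a1. Without both replicate 1 arrays, the hippocampal differences turned to -0.050 for Col1a1, 0.12 for Col4a5, -0.046 for Col6a3, 0.094 for Col16a1 and -0.19 for Col11a1. The cause was not tested. A background correction and a filter on dim probe sets could not be run, since no level is left, and signal over background is unknown.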
